A study of Mus musculus with 4 samples.

Results

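The expression of 44 mitosis genes was examined in tumor-associated macrophages (TAMs) from B16 melanomas. The genes were given as a list of symbols, with no rule on their values, but with earlier results of these data known, and were found by Entrez identifier among the 16739 genes with a value in any library. All 44 had a value in each of the 4 libraries. They form 7 roles: the switch for entry into and exit from mitosis (9 genes), chromosomal passenger and Aurora kinases (4), the spindle checkpoint (3), kinetochore and centromere (6), spindle motors and microtubule proteins (9), cytokinesis (6) and chromosome structure (7).

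B16-F10, a melanoma line of the C57BL/6 strain, was injected under the skin of C57BL/6 mice that were 6 to 8 weeks old, and CD45+CD11b+F4/80+ cells were sorted from the tumors on day 16 for RNA-seq. The study's methods give an earlier range of days for its analysis of infiltrating cells. One group was WT (n = 2), described as littermate controls, and the other carried loxP-flanked Trim24 deleted by LysM-Cre (n = 2, labelled Trim24-/-), a recombinase driven by the lysozyme 2 promoter, which is active in macrophages, monocytes and neutrophils. All mice bore the tumor, and the labels list no other treatment. Whether each library came from 1 mouse or from pooled mice is not stated, and p-values measure the spread between these libraries.

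Cells divide by a fixed order of events. Cyclin-dependent kinase Cdk1 with cyclins A and B starts mitosis, condensins and topoisomerase II compact the chromosomes, kinesins and other microtubule proteins build the spindle, and kinetochores tie chromosomes to it. The spindle checkpoint holds the anaphase-promoting complex, an ubiquitin ligase, in check until every chromosome is attached, after which separase frees the sister chromatids and the cell is cut apart by cytokinesis. Most of these genes are transcribed in G2 and M phase. The DREAM and MuvB complexes, B-Myb and Foxm1 control them, and many carry CHR and CCAAT elements in their promoters. Transcripts of these genes mark dividing cells, which in tumors include a share of the recruited macrophages. In sorted bulk samples, fewer dividing cells and less of these RNAs per cell cannot be told apart.

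Promoters are shown because shared elements are what these genes have in common beyond their function. RefSeq promoters (GRCm38.p6), each from 250 bases before to 50 bases after a transcription start, were found for 38 of the 44 genes (40 promoters), and Tpx2, Cdca2, Ccna2, Smc4, Kif20a and Aurkb had none in that table. CCAAT and the CHR hexamer TTTGAA were searched on both strands. CCAAT was found in 77.5% of the promoters of the mitosis genes and in 37.4% of all 32851 promoters in the table, and TTTGAA in 82.5% and 17.9%. Both were found in 70.0% against 6.95%. At least 2 copies of CCAAT were found in 50% against 11.7%. The second form of CHR, TTTAAA, was found in 22.5% against 13.2%. Among genes expressed enough to be tested, 38.2% of 11500 promoters held CCAAT and 12.7% held TTTGAA. In 45 S phase genes, of which 36 had a promoter, CCAAT reached 59.1% but TTTGAA 13.6%. At least 2 copies of CCAAT were found in 38.6% of the promoters of these S phase genes. The elements were also frequent in a further list of other mitosis genes, read below. Of its 52 promoters, 26 held TTTGAA, 69.2% held CCAAT and 34.6% held both. At least 2 copies of CCAAT were found in 40.4% of them. TTTGAA lay within 50 bases of the start in 31 promoters of the mitosis genes, and it overlapped CCAAT once. A match is a description of letters and not a bound site. The windows printed here run from 200 bases before to 10 after the start, 5′ to 3′ on the gene's strand. They include Mki67 (chr7:135716370-135716579, minus strand) and Top2a (chr11:99024180-99024389, minus), which had some of the largest differences. Cdk1 (chr10:69352903-69353112, minus) and Ube2c (chr2:164769729-164769938, plus), a short transcript, had log2 fold changes of -0.65 and -0.58, past the median of -0.49. Ccnb2 (chr9:70421545-70421754, minus) and Cdc20 (chr4:118437334-118437543, minus) had almost no difference. Capitals mark CCAAT or its reverse complement ATTGG and TTTGAA or its reverse complement TTCAAA, and in Ube2c the run CCAATTGG holds both strands of the CCAAT element with shared letters.
Mki67: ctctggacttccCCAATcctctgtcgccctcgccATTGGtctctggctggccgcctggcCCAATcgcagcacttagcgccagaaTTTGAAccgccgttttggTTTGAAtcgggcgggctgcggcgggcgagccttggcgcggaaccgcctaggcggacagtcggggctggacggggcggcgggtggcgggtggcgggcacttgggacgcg
Top2a: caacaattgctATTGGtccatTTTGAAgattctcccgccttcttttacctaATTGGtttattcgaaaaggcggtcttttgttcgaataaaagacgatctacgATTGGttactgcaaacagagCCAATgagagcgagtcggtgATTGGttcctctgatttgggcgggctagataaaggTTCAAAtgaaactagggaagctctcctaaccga
Cdk1: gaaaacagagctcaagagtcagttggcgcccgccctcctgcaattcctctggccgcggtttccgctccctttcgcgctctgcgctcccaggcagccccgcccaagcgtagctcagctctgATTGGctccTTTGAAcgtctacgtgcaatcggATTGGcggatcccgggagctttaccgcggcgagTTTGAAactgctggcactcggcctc
Ube2c: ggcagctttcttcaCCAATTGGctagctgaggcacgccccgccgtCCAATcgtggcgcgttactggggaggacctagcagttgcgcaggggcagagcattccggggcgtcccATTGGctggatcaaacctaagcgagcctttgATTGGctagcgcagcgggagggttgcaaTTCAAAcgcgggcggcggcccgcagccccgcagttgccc
Ccnb2: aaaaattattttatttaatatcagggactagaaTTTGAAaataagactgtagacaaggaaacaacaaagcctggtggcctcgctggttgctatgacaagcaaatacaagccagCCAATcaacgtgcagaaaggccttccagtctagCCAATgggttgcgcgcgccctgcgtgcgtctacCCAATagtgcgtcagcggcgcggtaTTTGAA
Cdc20: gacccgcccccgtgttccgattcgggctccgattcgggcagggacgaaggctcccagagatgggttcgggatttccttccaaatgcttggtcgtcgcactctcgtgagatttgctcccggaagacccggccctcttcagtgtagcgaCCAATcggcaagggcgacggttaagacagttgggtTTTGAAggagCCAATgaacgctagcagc
Each of these 6 windows holds at least 2 CCAAT and 1 TTTGAA. Among other genes with a large difference, the promoter of Kif20b had TTTGAA but no CCAAT, and that of Nusap1 had neither. Of the 31 genes with TTTGAA in a promoter the median log2 fold change between the groups was -0.49, and of the 7 without it -0.31. Birc5, Bub1, Ccnb1, Cenpe, Ncaph, Nuf2 and Nusap1 made up the latter and ranged from Cenpe and Nusap1, at -0.72 and -0.78, to Ccnb1, at -0.21.

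The libraries held 4476122 to 5172407 expected counts, at which 3 counts correspond to 0.606 to 0.639 CPM (read counts set to a common library total with edgeR's TMM factors), a floor that covers counting error only. Trim24 itself, the targeted gene, had 5.86 and 2.08 CPM in WT and 3.41 and 0.411 CPM in those labelled Trim24-deficient, so the groups overlapped (log2 fold change -1.06 ± 0.82 (SE), adjusted p = 0.635, edgeR's quasi-likelihood test), and the mutant group is named by its label throughout. Sex-linked transcripts parted the groups. Xist, which is transcribed from the inactive X chromosome of females, had 10.9 and 6.46 CPM in WT against 437 and 256 CPM, and Y-linked Ddx3y 73.7 and 102 CPM against 0.426 and 0.411 CPM. The study's methods state sex-matched mice, but in these libraries genotype and sex cannot be told apart for any result given here. The macrophage label was met: all 12 macrophage markers passed the low-count filter, with C1qb at 4580 to 6480 CPM and Lyz2 at 3500 to 7130 CPM, and they summed to 20237 to 27023 CPM over the 4 libraries. Transcripts of other cells were present too and are given after the cell cycle lists.

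The mitosis genes were expressed well above the floor. Their lowest expected count in any library was 40 and the highest 875, so none rests on a handful of reads. Per length, as FPKM averaged over the 4 libraries, they ranged from 3.45 (Espl1, separase) to 136 (Birc5, survivin), with a median of 17.5 against 9.86 for all genes tested, and 35 of 44 lay above the latter. The highest FPKM after Birc5 were those of Ube2c (94.0), Cdc20 (83.3), Ccnb2 (75.4) and Cenpa (71.1), and the lowest after Espl1 were those of Ttk (4.02), Cenpf (4.14) and Kif20b (4.85). The highest are short transcripts and the lowest, apart from Ttk, long ones. The genes lie on 17 chromosomes, 1 of them (Kif4) on X.

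Mitosis transcripts were lower in the libraries labelled Trim24-deficient, with one gene past the test. Summed over the 44 genes, the level was 3532 and 3710 CPM in WT and 2483 and 2849 CPM in those labelled Trim24-deficient (3621 ± 126 against 2666 ± 259, SD, n = 2 each), a ratio of 0.736, and both labelled libraries lay below both WT libraries. The log2 fold change was below 0 for 42 genes and above 0 for 2, Ccnb2 (0.01) and Cdc20 (0.03), and both were below 0 when libraries were scaled by their totals or by the upper quartile. The median log2 fold change was -0.49 (interquartile range -0.60 to -0.32), against -0.01 for the 11302 genes tested. With library totals in place of TMM the median of all genes moved to -0.15 and that of the mitosis genes to -0.64, so that the distance between them was -0.49.

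A gene was called at a false discovery rate (FDR) under 0.05 and a fold change above 1.5. Of the 44 genes 1 was called (2.27%), Mki67, against 0.372% of all genes tested, of which 33 of the 42 called were higher in the labelled libraries. An unadjusted p under 0.05 was reached by 22 of the 44 in the lower direction (50%) and by 0 in the higher, against 5.62% and 6.58% of all genes tested. In 37 genes (84.1%) both labelled libraries lay below both WT libraries, against 23.0% of all genes tested, and in none did both lie above, against 21.4%. The other 7 overlapped: Ccnb1, Ccnb2, Cdc20, Cenpa, Kif2c, Ckap2l and Kif20a. At n = 2 a group, an exact permutation test (two-sided) cannot go below p = 0.333, and the edgeR p-values use a spread estimated across genes. Genes that are transcribed together are not independent of each other, and these counts are given without a test of the list.

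**Figure D1:**
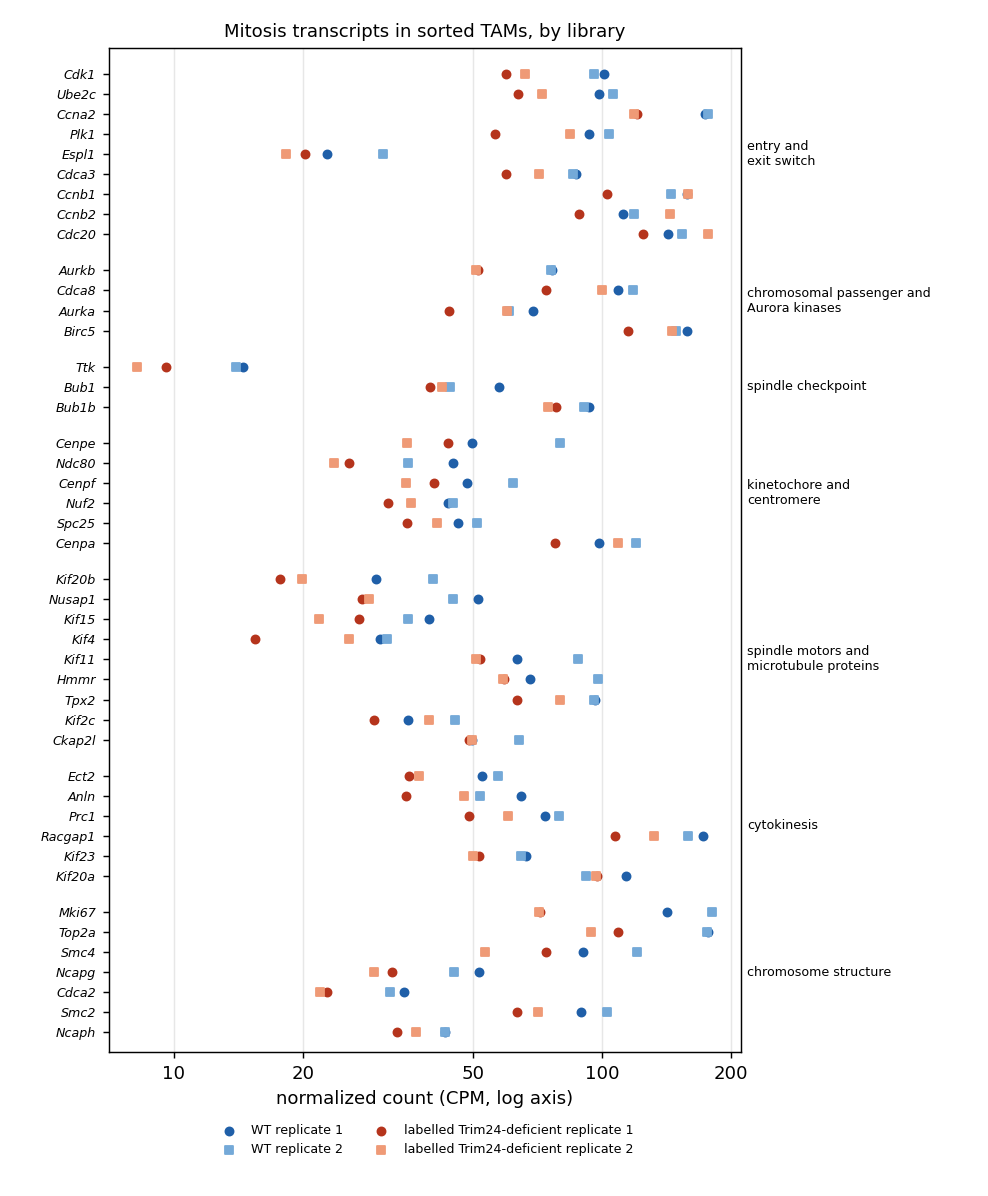
Normalized counts (CPM, log axis) of the 44 mitosis genes in each of the 4 libraries, grouped by role; blue points are the WT libraries and red and orange points the libraries labelled Trim24-deficient. In 37 genes both labelled libraries sit to the left of both WT libraries, and replicate 2 of the labelled libraries lies to the right of replicate 1 in 26.

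The libraries labelled Trim24-deficient were not alike. Replicate 1 was the lowest of the 4 libraries for 26 genes and replicate 2 for 17, and WT replicate 2 for 1 (Kif20a). Replicate 2 exceeded replicate 1 by more than 1.2 times in 14 genes and the reverse held in 3. It was the highest library of all for Ccnb1, Ccnb2 and Cdc20. The WT libraries shared the highest place, replicate 1 in 19 genes and replicate 2 in 22. Without replicate 1 of the labelled libraries the median log2 fold change was -0.36, with 40 genes below 0, and without replicate 2 it was -0.55, with all 44 below 0.

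Genes of chromosome structure had the lowest median of the 7 roles. Their summed level was 627 and 702 CPM in WT and 406 and 377 CPM in those labelled Trim24-deficient, and in all 7 both labelled libraries lay below both WT libraries. Their median log2 fold change was -0.65, and 6 of 7 had an unadjusted p under 0.05. These counts, and those of the other roles, are read against the 23.0% and 5.62% of all genes tested given above, and groups of 3 to 9 genes allow only a coarse share. Mki67 (Entrez 17345, chr7:135689784-135716450), which encodes Ki-67, the coat protein of mitotic chromosomes and a common marker of cycling cells, had 142 and 181 CPM in WT and 71.6 and 71.1 CPM in those labelled Trim24-deficient. It fell by 1.18 on the log2 scale (SE 0.20, 2.27-fold lower, adjusted p = 0.0453, edgeR's quasi-likelihood test). The call was close to its threshold: it was lost with upper-quartile scaling (adjusted p = 0.0507, edgeR), with limma on log2(FPKM + 1) (adjusted p = 0.146) and with the length trend of each library removed (log2 fold change -0.88, adjusted p = 0.116, edgeR). It was lost as well without WT replicate 1 (adjusted p = 0.0553, edgeR) or WT replicate 2 (adjusted p = 0.42, edgeR), and the direction was the same in each of these fits. It was kept with DESeq2 (adjusted p = 0.000682), and by edgeR with library totals (adjusted p = 0.0408), without the low-count filter (adjusted p = 0.0362), and without labelled replicate 1 (adjusted p = 0.00171) or 2 (adjusted p = 0.00106).

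Top2a (Entrez 21973, chr11:98992947-99024199), topoisomerase II alpha, which untangles sister chromatids, had 177 and 176 CPM in WT and 109 and 94.1 CPM in the labelled libraries (log2 fold change -0.80 ± 0.19 (SE), adjusted p = 0.141, edgeR). Smc4 (Entrez 70099, chr3:69004738-69034623), an ATPase of the condensin ring, had 90.1 and 121 CPM against 73.9 and 53.2 CPM (-0.73 ± 0.23, adjusted p = 0.24, edgeR). Neither passed the adjusted threshold, although no labelled library reached a WT one. The other condensin genes had log2 fold changes of -0.52 for Smc2, the partner ATPase, -0.65 for Ncapg and -0.30 for Ncaph, subunits of condensin I, and none of them passed the adjusted threshold. Cdca2, which brings a phosphatase to chromatin at the end of mitosis, stood at 34.5 and 31.9 CPM in WT and 22.8 and 22.0 CPM in the labelled libraries.

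Spindle motors and microtubule proteins came next, with a median log2 fold change of -0.56. Of the 9, 5 had an unadjusted p under 0.05 and 7 did not overlap between groups, and the summed level was 463 and 542 CPM against 340 and 374 CPM. Kif20b (Entrez 240641, chr19:34922335-34975750), a kinesin that acts in late mitosis, had 29.7 and 40.4 CPM in WT and 17.7 and 19.9 CPM in the labelled libraries (-0.90 ± 0.24, adjusted p = 0.195, edgeR), second to Mki67 in size. Nusap1 (Entrez 108907, chr2:119618298-119650165), which bundles spindle microtubules around chromosomes, had 51.3 and 44.8 CPM against 27.5 and 28.6 CPM (-0.78 ± 0.20, adjusted p = 0.179, edgeR). Kif11 and Kif15, the motors that push the spindle poles apart, had log2 fold changes of -0.56 and -0.61, and Hmmr, a spindle assembly factor, -0.49. Kif4, a chromosome-bound motor and the one gene on X, had 30.3 and 31.5 CPM against 15.5 and 25.7 CPM. The highest of the 9 per length was Tpx2 (Entrez 72119, chr2:152847964-152895321; mean FPKM 19.6), the activator of Aurora A on the spindle, at 96.3 and 95.6 CPM against 63.3 and 79.7 CPM (-0.42 ± 0.19, adjusted p = 0.416, edgeR). Ckap2l (Entrez 70466, chr2:129268210-129297228), a spindle pole protein, had 49.7 and 64.0 CPM against 48.8 and 49.7 CPM (-0.21 ± 0.20, adjusted p = 0.732, edgeR), with replicate 2 of the labelled libraries at the level of WT replicate 1. Kif2c, which takes microtubules apart at the centromere, overlapped as well.

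The switch into and out of mitosis was split. Of its 9 genes, 6 did not overlap and 3 did, the median log2 fold change was -0.48, and the summed level was 990 and 1020 CPM in WT and 697 and 912 CPM in the labelled libraries. Cdk1, the kinase at its core, had 101 and 95.6 CPM against 59.6 and 66.2 CPM, and its S and G2 phase partner Ccna2 (cyclin A2) 174 and 177 CPM against 121 and 119 CPM, log2 fold changes of -0.65 and -0.55. The B cyclins stood otherwise. Ccnb1 (Entrez 268697, chr13:100778739-100786486) had 158 and 145 CPM in WT and 103 and 159 CPM in the labelled libraries (-0.21 ± 0.23, adjusted p = 0.757, edgeR), and Ccnb2 (Entrez 12442, chr9:70407689-70421554) 112 and 119 CPM against 88.2 and 144 CPM (0.01 ± 0.24, adjusted p = 0.994, edgeR). Replicate 1 was below and replicate 2 above both WT libraries in either gene.

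The anaphase-promoting complex appeared through its activator and its conjugating enzyme. Cdc20 (Entrez 107995, chr4:118432901-118437343), which brings substrates such as securin and cyclin B1 to the complex, had 143 and 154 CPM against 125 and 177 CPM (0.03 ± 0.21, adjusted p = 0.973, edgeR). Ube2c (Entrez 68612, chr2:164769929-164772902), the enzyme that loads the complex with ubiquitin, had 98.3 and 106 CPM against 63.7 and 72.3 CPM (-0.58 ± 0.18, adjusted p = 0.24, edgeR). The groups overlapped for Cdc20 and not for Ube2c, neither gene was called, and the difference between them was not tested. Plk1, the polo kinase, had 93.1 and 104 CPM against 56.4 and 84.0 CPM. Espl1, the protease that cuts cohesin at anaphase, and Cdca3, a regulator of mitotic entry, had log2 fold changes of -0.48 and -0.40.

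Kinetochore and centromere genes had a median log2 fold change of -0.47, with 3 of 6 at an unadjusted p under 0.05 and 5 not overlapping. Cenpe, the motor that carries chromosomes to the spindle equator, had 49.7 and 79.8 CPM in WT and 43.7 and 35.1 CPM in the labelled libraries, a log2 fold change of -0.72. The Ndc80 complex, which grips the microtubule end, was represented by Ndc80 (-0.71), Nuf2 (-0.40) and Spc25 (-0.35), none of which overlapped between groups. Cenpf, a large protein of the outer kinetochore, had 48.5 and 61.9 CPM against 40.5 and 34.9 CPM. Cenpa (Entrez 12615, chr5:30666877-30674837), the histone that marks centromeres, had 98.3 and 120 CPM against 77.5 and 109 CPM (-0.23 ± 0.22, adjusted p = 0.72, edgeR), so replicate 2 lay between the WT libraries.

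Cytokinesis genes had a median log2 fold change of -0.48, with 3 of 6 at an unadjusted p under 0.05 and 5 not overlapping. Racgap1 (Entrez 26934, chr15:99620496-99651656) and Kif23 form centralspindlin, which marks the plane of division. Racgap1 had 172 and 159 CPM in WT and 107 and 132 CPM in the labelled libraries (-0.47 ± 0.19, adjusted p = 0.374, edgeR), and Kif23 66.6 and 64.6 CPM against 51.5 and 50.1 CPM. Ect2, the exchange factor that turns on RhoA there, stood at 52.5 and 57.3 CPM against 35.4 and 37.4 CPM, with a log2 fold change of -0.59. Those of Prc1, which bundles the central spindle, and Anln, the anillin scaffold of the contractile ring, were -0.49 and -0.50. Kif20a (Entrez 19348), a kinesin of the central spindle, had 114 and 91.9 CPM in WT and 97.6 and 96.6 CPM in the labelled libraries (-0.09 ± 0.19, adjusted p = 0.89, edgeR), the only gene with a WT library lowest.

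By median, the genes of the passenger complex with Aurora A (-0.35) and those of the checkpoint (-0.31) differed least. None of these 7 genes overlapped between groups. Birc5 (survivin; Entrez 11799, chr11:117849237-117855743), a passenger subunit and the highest of all 44 per length, had 158 and 149 CPM in WT and 115 and 146 CPM in the labelled libraries (-0.24 ± 0.20, adjusted p = 0.656, edgeR). Aurkb, the kinase of the same complex, had 76.3 and 76.0 CPM against 51.3 and 50.8 CPM, a log2 fold change of -0.58, and Cdca8 (borealin) 109 and 118 CPM against 73.9 and 100 CPM. Aurora A itself (Aurka), which works at the spindle poles, was at 60.0 CPM in labelled replicate 2 and 60.6 CPM in WT replicate 2, almost at the same level. In the checkpoint, Bub1b (Entrez 12236, chr2:118598202-118641592), which binds and restrains Cdc20, had 93.1 and 90.6 CPM against 78.0 and 74.8 CPM (-0.27 ± 0.18, adjusted p = 0.576, edgeR). Ttk, the kinase that starts the signal, had the lowest CPM of the 44, 14.5 and 14.0 CPM against 9.58 and 8.22 CPM, and Bub1 a log2 fold change of -0.31.

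**Figure D2:**
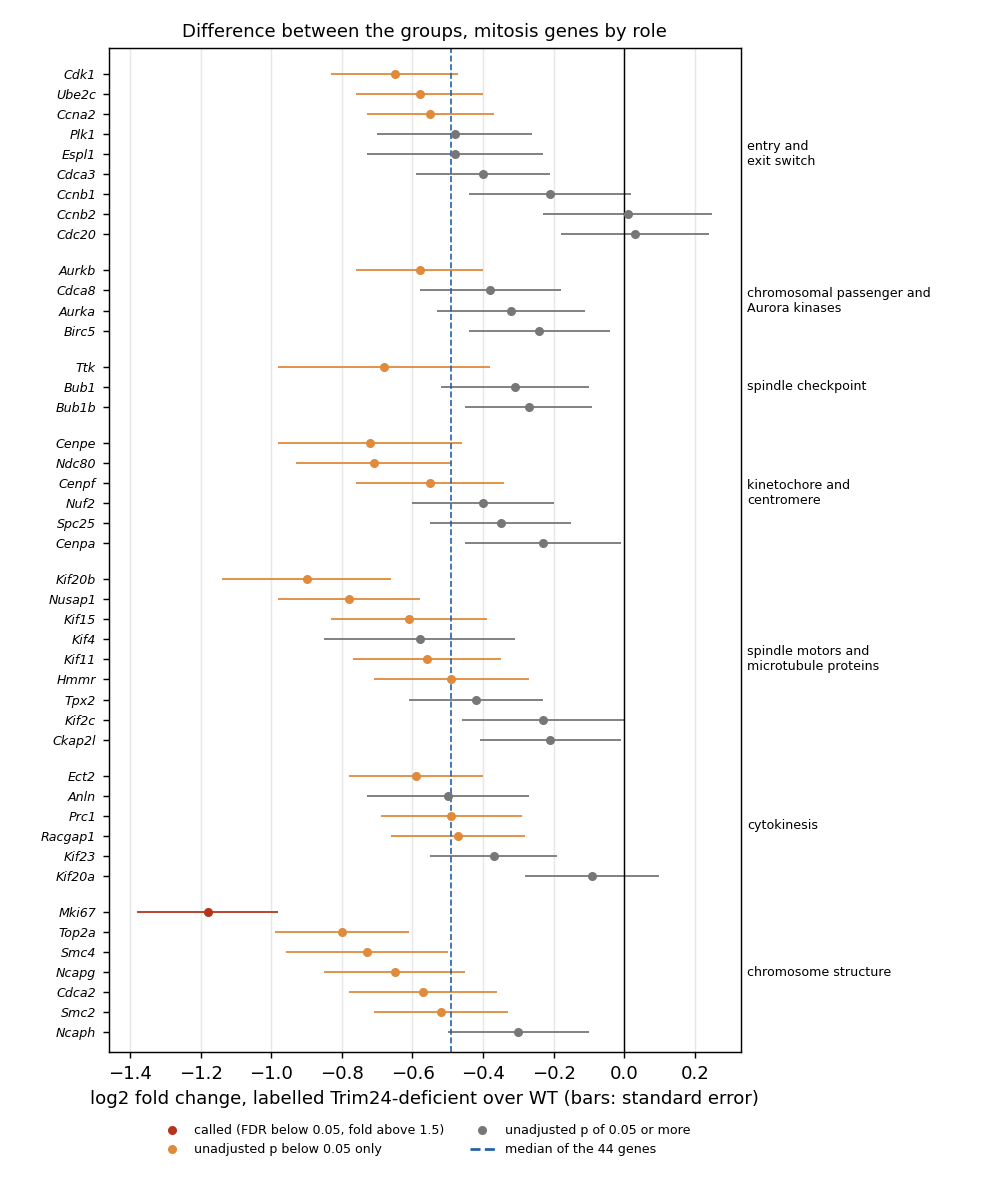
Log2 fold change of each mitosis gene, libraries labelled Trim24-deficient over WT, from edgeR, with its standard error as a bar (n = 2 libraries a group) and genes ordered by role. The point called is Mki67 at -1.18, points with an unadjusted p under 0.05 are orange, and the dashed line is the median of the 44 genes at -0.49.

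Longer transcripts differed more. Across the 44 genes, the log2 fold change was lower the longer the transcript, on a log scale of length (Pearson's r = -0.52, Spearman's rho = -0.49), and across all genes tested rho was -0.25. These correlations are across genes that share the same 4 libraries, so they are given as a description without a p. The 10 genes under 2000 bases had a median log2 fold change of -0.33, the 19 from 2000 to 4000 bases -0.48 and the 15 of 4000 bases or more -0.58. In all genes tested the medians for the same lengths were 0.09, 0.00 and -0.15, and 2.75%, 4.92% and 9.87% of them were lower at an unadjusted p under 0.05. The mitosis genes thus had the lower median at each length. Roles differed in length too, with 2702 to 10098 bases in chromosome structure and 1059 to 1981 bases in passenger and Aurora kinases. The checkpoint genes, whose median differed least, had 2888 to 4334 bases. Differences between roles were not tested apart from length. The labelled libraries also differed by length between themselves: the log2 ratio of replicate 2 to replicate 1 had a rho of -0.51 with length in the mitosis genes and -0.19 in 11276 genes tested. The WT libraries had a rho of 0.22. With each library's trend on length removed, all 44 genes were below 0, their median was -0.44 and 20 had an unadjusted p under 0.05, but 0 were called by edgeR.

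**Figure D3:**
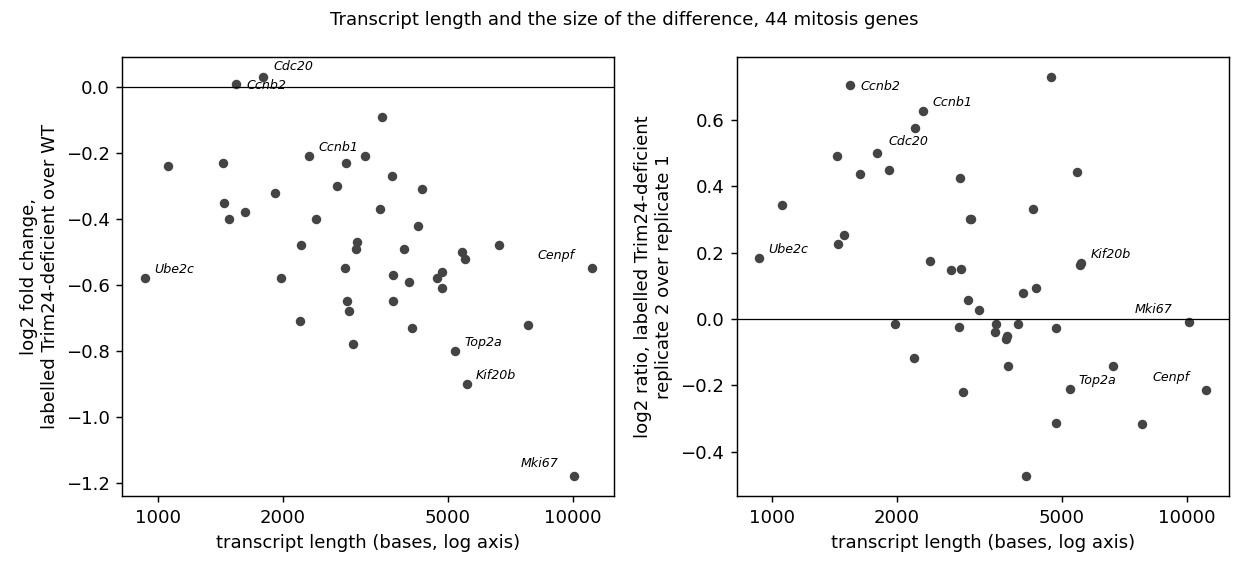
Transcript length (bases, log axis) of the 44 mitosis genes against the log2 fold change between groups (left) and against the log2 ratio of the replicates labelled Trim24-deficient, 2 over 1 (right); each point is a gene. Both decline with length (rho -0.49 and -0.51), and the short transcripts Ccnb2 and Cdc20 sit near 0 on the left.

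Other genes of the cell cycle were read from further lists. Of 55 other mitosis genes tested, 20 were lower at an unadjusted p under 0.05 (36.4%) and 0 were higher, against 5.62% and 6.58% of all genes tested. Their median log2 fold change was -0.40. In the lower direction 37 did not overlap (67.3%, against 23.0% of all genes tested). In the higher direction 1 did not overlap, against 21.4% of all genes tested. That gene was Bub3, a checkpoint protein that binds Bub1 and Bub1b, at 161 and 170 CPM in WT and 172 and 202 CPM in the labelled libraries. The most abundant was Stmn1, which destabilizes microtubules, at 339 and 300 CPM in WT and 220 and 300 CPM in the labelled libraries. Tacc3, a spindle protein, and Zwint, a kinetochore protein, overlapped. The list of the anaphase-promoting complex held its subunits, an activator, Fzr1, and a conjugating enzyme, Ube2s. Most cells express the subunits whether or not they divide. Of the 15 genes, 1 was lower at an unadjusted p under 0.05 (6.67%, against 5.62% of all genes tested). It was Ube2s, named after its values were seen, at 21.6 and 29.8 CPM in WT and 13.4 and 14.6 CPM in the labelled libraries. The median log2 fold change of the 15 was 0.02, with Anapc5 at 319 and 300 CPM against 283 and 380 CPM. The summed level of the 15 was 1174 and 1138 CPM in WT and 1107 and 1253 CPM in the labelled libraries.

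Of 19 transcription factors of the late cell cycle and members of the DREAM complex, 5 were lower at an unadjusted p under 0.05 (26.3%). In the higher direction there were 0, and of all genes tested 5.62% were lower and 6.58% higher. The median of the 19 was -0.35. Those 5, named after their values were seen, were Mybl2 (B-Myb), Foxm1, the repressors E2f7 and E2f8, and Tfdp2, a partner of E2F proteins. Foxm1 had 28.9 and 26.7 CPM in WT and 17.3 and 15.2 CPM in the labelled libraries, and Mybl2 21.6 and 17.7 CPM against 8.31 and 11.7 CPM, with log2 fold changes of -0.77 and -0.97. E2f1, an activator of S phase genes, had 130 and 137 CPM against 129 and 173 CPM. None of the 19 was called.

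Genes of the earlier phases differed by smaller medians. Of 45 S phase genes, 7 were lower at an unadjusted p under 0.05 (15.6%), 0 were higher, 25 did not overlap in the lower direction (55.6%) and the median was -0.26, against 5.62%, 6.58% and 23.0% of all genes tested for the 3 counts. Those with the highest CPM were Pola2, a subunit of DNA polymerase alpha, at 281 and 358 CPM in WT and 203 and 437 CPM in the labelled libraries, Mcm6, part of the replicative helicase, at 307 and 267 CPM against 200 and 261 CPM, Rrm1, a subunit of ribonucleotide reductase, at 264 and 204 CPM against 184 and 208 CPM, and Pcna. Pola2 and Rrm1 overlapped between the groups. Pcna, the sliding clamp of DNA polymerase, had 244 and 209 CPM in WT and 181 CPM in both labelled libraries. Single S phase genes differed more than the median: Clspn and Pole, named after their values were seen, had log2 fold changes of -1.35 and -1.0. That of Clspn lay past Mki67 at -1.18, the largest of the mitosis genes. The mitosis genes summed to 0.882 and 1.03 of the S phase genes in WT and to 0.846 and 0.799 in the labelled libraries, so the labelled libraries were lower by a small margin in this ratio, with WT replicate 1 close to them. Of 9 G1 cyclins and kinases, 1 was lower at an unadjusted p under 0.05 (11.1%), Cdk6, and the median was -0.22. Of 14 brakes on the cell cycle tested, 0 were lower and 2 were higher at an unadjusted p under 0.05: Cdkn1a (p21), an inhibitor of cyclin-dependent kinases, at 234 and 227 CPM against 307 and 315 CPM, and Btg1, an antiproliferative factor, at 117 and 88.3 CPM against 184 and 159 CPM. In none of these lists was a gene called by edgeR.

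Markers of other cells moved with the groups as well, and their part in the lower mitosis transcripts was not tested. All 5 monocyte markers were higher in both labelled libraries at an unadjusted p under 0.05. Their summed level was 556 and 715 CPM in WT and 1752 and 1194 CPM in the labelled libraries. The study counts 1 of the 5, Chil3 (Ym1), among genes of IL-4-activated (M2) macrophages, and reports it higher in Trim24-deficient TAMs. Of 12 macrophage markers, 0 were lower and 2 were higher, with a sum of 24013 and 20237 CPM against 27023 and 25720 CPM. Of 5 neutrophil markers tested of 10 listed, 4 were higher (185 and 223 CPM against 288 and 449 CPM). T and NK cell markers summed to 215 and 121 CPM in WT and 472 and 130 CPM in the labelled libraries, with 1 of 11 higher. Erythroid markers, 3 of 4 tested lower, summed to 90.1 and 235 CPM against 8.31 and 105 CPM, with Hba-a2 and Hbb-bt at 0 in labelled replicate 1. Dendritic cell markers summed to 56.9 and 55.8 CPM in WT and 83.7 and 47.3 CPM in the labelled libraries. Of 6 tested of 9 listed, 3 had a log2 fold change below 0 and 3 above 0. Of these 6, 1, Flt3, was lower, at 3.84 and 5.42 CPM against 1.28 and 0.205 CPM. Flt3 had 6 counts and 1 count in the labelled libraries, the second under the floor of 3 counts. Endothelial markers summed to 21.8 and 19.6 CPM against 45.4 and 31.4 CPM, and of 3 tested of 6 listed 1, Pecam1, which leukocytes express too, was higher, at 16.0 and 5.63 CPM against 36.0 and 22.0 CPM. B cell markers summed to 46.3 to 55.4 CPM over the 4 libraries, nearly all of it Cd79b, and fibroblast markers to 3.23 to 6.58 CPM, with none of 7 past the filter. The markers named here as lower or higher are so at an unadjusted p under 0.05. Of all genes tested, 5.62% were lower and 6.58% higher at that level.

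B16 melanoma cells divide too, and their transcripts were present despite the sort for CD45, a leukocyte antigen. All 10 melanoma markers were tested and none was at 0 in any library. They summed to 1001 and 995 CPM in WT and 782 and 1008 CPM in the labelled libraries. Tyr, an enzyme of melanin synthesis, had 411 and 424 CPM against 375 and 496 CPM, and Tyrp1, another, 146 and 128 CPM against 70.1 and 104 CPM. Of the 10, 2 were lower at an unadjusted p under 0.05 (20%, against 5.62% of all genes tested), Tyrp1 and Slc45a2. In the lower direction 6 did not overlap (60%, against 23.0%), and Tyr, Gpnmb, Pmel and Sox10 overlapped. The median log2 fold change of the 10 was -0.54. Divided by the melanoma markers, the mitosis genes were at 3.53 and 3.73 in WT and 3.18 and 2.83 in the labelled libraries. Divided by the macrophage markers, they were at 0.147 and 0.183 against 0.0919 and 0.111. Each ratio was lower in both labelled libraries than in both WT ones. The first depended on Tyr, the most abundant melanoma marker: without it, a choice made after the data were seen, the other 9 markers summed to 590 and 571 CPM in WT and 407 and 511 CPM in the labelled libraries, and the ratio was 5.99 and 6.50 against 6.10 and 5.57, so the groups overlapped. Gpnmb is a gene that macrophages also express. Without Tyr and without Gpnmb, the 8 markers left summed to 420 and 370 CPM against 246 and 320 CPM, with a ratio of 8.40 and 10 against 10.1 and 8.90. Over these 8 markers both labelled libraries were below both WT libraries, but over all 10 only labelled replicate 1 was. Leaving out Tyr was, here too, a choice made after the data were seen. The part of melanoma cells in the mitosis transcripts was not tested.

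**Figure D4:**
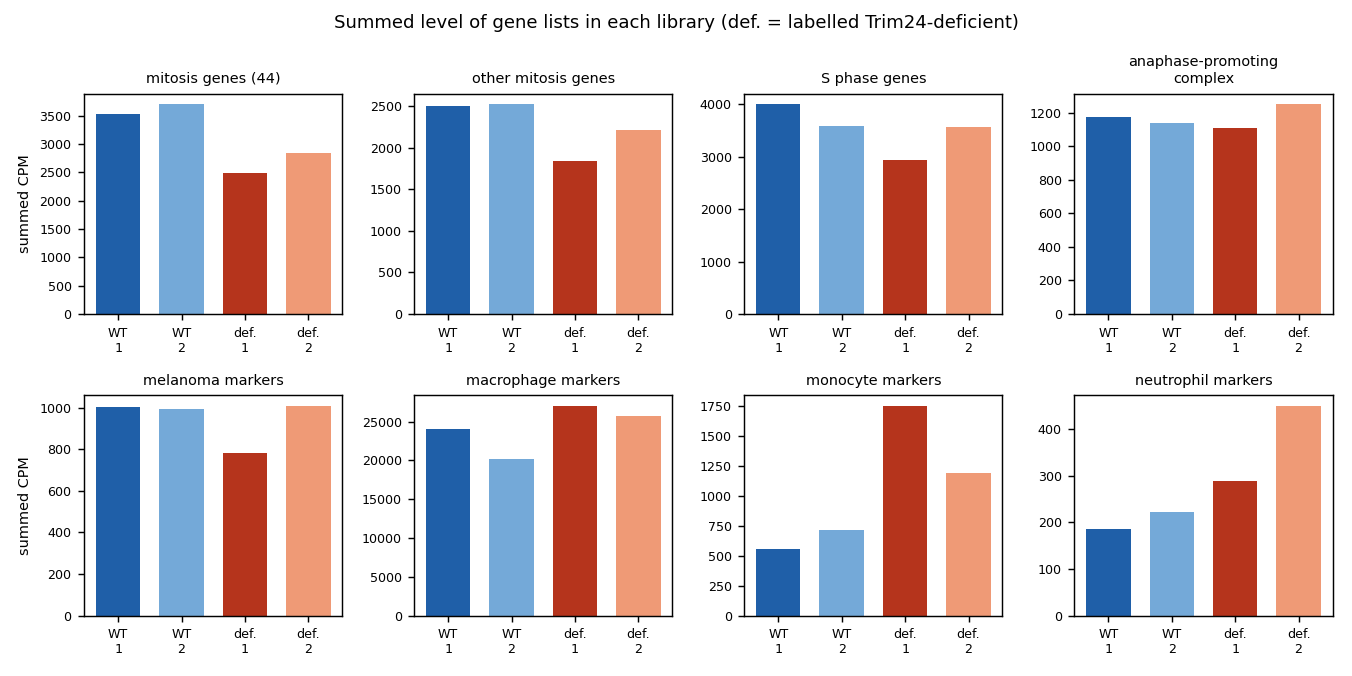
Summed normalized count (CPM) of the mitosis genes and of other lists in each library, 1 panel a list, with a bar for each library and its value on an axis from 0; def. stands for labelled Trim24-deficient. The mitosis genes are below both WT libraries in both labelled libraries (2483 and 2849 against 3532 and 3710 CPM), the sum of all 10 melanoma markers, Tyr included, in replicate 1 alone (782 CPM), and the monocyte markers are above WT in both.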

How the data were processed

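RNA-seq of sorted CD45+CD11b+F4/80+ cells was compared between 2 WT and 2 Trim24-deficient libraries, grouped by their labels. Per the labels, the authors used Bowtie, RSEM and the GRCm38 (mm10) build. The versions are not given in the sources used here. The authors deposited for each gene an RSEM expected count, not normalized, an FPKM, scaled to transcript length and library total, and the transcript length. A gene missing from a library was set to 0. Symbols (16698 of 16739 genes), positions and promoters came from RefSeq tables of GRCm38.p6.

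Expected counts were rounded, filtered by edgeR's filterByExpr (edgeR 4.0.16, R 4.3.3; 11302 genes left), scaled by TMM and tested for the genotype label with the quasi-likelihood test, without a block, with Benjamini-Hochberg adjustment over all genes tested. Calls needed an FDR under 0.05 and a fold change above 1.5. Standard errors are the log2 fold change divided by the square root of F. Unadjusted p refers to the same test. Alternatives were DESeq2 1.42.0, limma 3.58.1 on FPKM on the log2 scale, with a pseudocount of 1 or 0.1 (genes reaching an FPKM of 1 in 2 or more libraries, or all genes), other scalings, filters and thresholds, offsets that remove a trend on length, the replicate number as a block, and each library left out. Replicates within a group differed by more than counting noise (chi-square per degree of freedom 8.57 in WT and 19.2 in the other group). The script was tested on simulated counts.

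The members and the gene lists were chosen with earlier results of these data known. Full statistics are given for the gene with the highest FPKM in each role, the 5 largest and 5 smallest log2 fold changes, and any gene called, and of other lists at most 4 genes by CPM, apart from those named as chosen after their values were seen. Flt3, Slc45a2 and Sox10 were also named after their values were seen. A called gene of the marker lists is not reported here.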

Additional observations from a re-analysis of the deposited data

How the results depend on the processing

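The direction of the list held in every fit run, with 40 to 44 of the 44 genes below 0, but the number of calls did not. The median log2 fold change of -0.49 became -0.64 with library totals and -0.65 with limma on log2(FPKM + 0.1), and ranged from -0.55 to -0.36 when a library was left out. The 42 genes called over all genes became 165 with DESeq2, 96 at an FDR under 0.1, 23 and 20 with limma on log2(FPKM + 1) and log2(FPKM + 0.1), 0 with limma on all genes (1636 at an unadjusted p under 0.05), and 25 to 652 when a library was left out: 66 without WT replicate 1, 25 without WT replicate 2, 405 without replicate 1 and 652 without replicate 2 of the libraries labelled Trim24-deficient. Of the mitosis genes, 1 was called by edgeR and by DESeq2, and 0 with upper-quartile scaling (29 of 44 at an unadjusted p under 0.05), with limma in its 3 forms (33, 33 and 30) and with the length trend removed (20). Leaving out a library gave 0 to 6: 0 without either WT library, Mki67, Smc4 and Top2a without labelled replicate 1, and Cdk1, Kif20b, Kif4, Mki67, Nusap1 and Plk1 without labelled replicate 2. Such a fit leaves 1 library in a group, assumed to vary like the others. The cause of these shifts was not tested.

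The replicate number as a block gave 634 calls over all genes and 7 among the mitosis genes, Cdk1, Cenpe, Kif20b, Mki67, Nusap1, Smc4 and Top2a, and put Ccnb2 at -0.03. Same-numbered libraries share only a number: the labels do not say that they are paired, and their deviations from the group means correlated at 0.165.

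Log2 fold changes near 0 changed sign. Ccnb2 (0.01) was at -0.15 with library totals, -0.05 with upper-quartile scaling, -0.00402 with at least 10 counts in every sample, -0.18, -0.19 and -0.18 with limma, -0.08 with the length trend removed and -0.39 to 0.32 with a library left out. Cdc20 (0.03) was at -0.13, -0.03, -0.14, -0.14, -0.14 and -0.04 with library totals, upper-quartile scaling, limma in its 3 forms and the length trend removed, and at -0.25 to 0.26 with a library left out. With a library left out, Ccnb1 ranged from -0.55 to 0.07, Cenpa from -0.49 to 0.0046 and Kif20a from -0.24 to 0.1. Trim24 was not called in the fits that gave it an adjusted p; DESeq2 gave none, and it did not pass the filter of at least 10 counts or the FPKM filter.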
